A study of Mus musculus with 24 samples.

Results

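The Ifi200 genes of the mouse are a cluster on chromosome 1 that encodes PYHIN proteins, most of which pair a pyrin domain with a DNA-binding HIN domain. Of the 56941 genes counted, 9 from this cluster are described here in bone marrow-derived macrophages: Ifi203, Ifi204, Ifi205, Ifi207, Ifi208, Ifi209, Ifi211, Ifi213 and Mndal. They were taken as the rows of the count table whose Ensembl identifiers map to these names, with Aim2 left out. The values of Ifi208 in the libraries of 1 genotype were known when the genes were chosen, so Ifi208 is described there and not tested.

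RNA was sequenced from macrophages of 3 genotypes with 4 libraries in each of 6 groups. WT is wild type, KO is a knockout of Hdac9, a class IIa histone deacetylase gene on another chromosome, and in dCIS a regulatory element was deleted in cis, in a study on Hdac9 expression. Each genotype was studied untreated or 6 h after 100 ng/ml lipopolysaccharide (LPS), the bacterial ligand of the receptor TLR4. All cells were grown from marrow in medium conditioned by L929 cells, then kept in serum-free medium with or without LPS. The labels do not say which bases were removed, whether KO or dCIS stems from 1 founder, or whether each library had its own mouse or culture. The p-values therefore reflect differences among libraries, and that variation may be technical.

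PYHIN proteins are known as products of interferon-stimulated genes. LPS acting on TLR4 leads macrophages to make interferon-beta, which signals through the receptor chains Ifnar1 and Ifnar2 to transcription factors that bind the interferon-stimulated response element (ISRE) of their targets. HIN domains bind double-stranded DNA, and pyrin domains bind other pyrin domains: Aim2 recruits the adaptor encoded by Pycard to form an inflammasome, while Ifi204 is known as a DNA-binding protein that acts with the adaptor STING.

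Promoter sequence is shown because the members moved together after LPS and because near-identical promoters and transcripts limit how far their counts can be told apart. RefSeq promoter windows of build GRCm38.p6, 250 bases before to 50 after a start site, were given for 8 of the 9 genes. They were searched on both strands for the ISRE core, which is GAAA, any 2 bases and GAAA. It was present in 7 of those 8 genes, against 3.99% of the 27025 genes (3.44% of the 32851 windows) of the table. The 60 bases around it follow, each read 5′ to 3′ on the strand of the gene, with the match in capitals. In the same place Ifi209 has 1 letter that differs from the match in Ifi208, written G1T with positions counted from 1 at the 5′ end of the 10 bases. A match is a description of letters, not of a bound site. The 7 matches are not separate observations, since the bases shown are identical in Ifi203 and Mndal and in Ifi208 and Ifi213.
Ifi203, second start, chr1:173942493-173942552 (-): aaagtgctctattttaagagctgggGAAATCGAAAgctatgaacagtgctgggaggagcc
Ifi205, chr1:174031855-174031914 (-): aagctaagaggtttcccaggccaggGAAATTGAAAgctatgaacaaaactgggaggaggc
Ifi207, chr1:173741816-173741875 (-): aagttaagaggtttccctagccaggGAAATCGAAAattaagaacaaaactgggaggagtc
Ifi208, chr1:173673582-173673641 (+): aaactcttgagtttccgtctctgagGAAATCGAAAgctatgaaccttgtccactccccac
Ifi209, 1 letter off, chr1:173630755-173630814 (+): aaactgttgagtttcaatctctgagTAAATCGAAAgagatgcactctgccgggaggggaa
Ifi211, chr1:173913049-173913108 (-): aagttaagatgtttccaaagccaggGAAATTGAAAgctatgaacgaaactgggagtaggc
Ifi213, chr1:173599311-173599370 (-): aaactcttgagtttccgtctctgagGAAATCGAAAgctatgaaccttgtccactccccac
Mndal, first start, chr1:173880189-173880248 (-): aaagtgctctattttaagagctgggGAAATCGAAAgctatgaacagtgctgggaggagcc

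The match reads GAAATCGAAA in Ifi203, Ifi207, Ifi208, Ifi213 and Mndal and GAAATTGAAA in Ifi205 and Ifi211. It lies on the strand of the gene in all 7, and in Ifi208 it covers positions -58 to -49 from the start site. Ifi205 has another match on the opposite strand past its start site, and Mndal has another, on the opposite strand, before its second start. The gamma-activated site TTCNNNGAA, which reads the same on both strands and stood in 8.30% of all windows, was in none of the 8 genes.

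**Figure D1:**
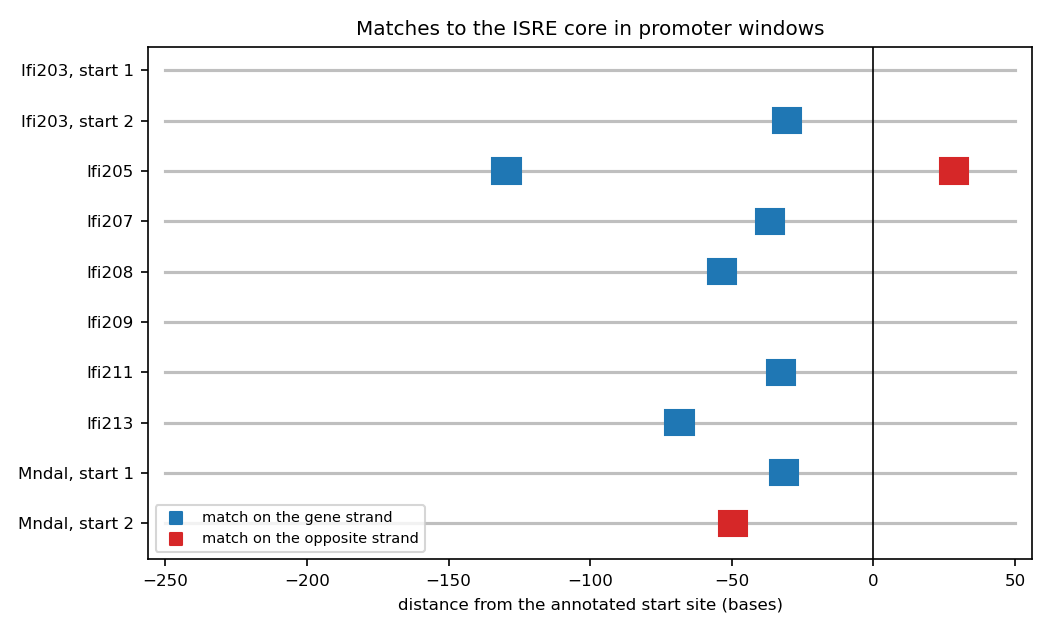
Matches to the ISRE core (boxes) in the RefSeq promoter windows of 8 Ifi200 genes, by distance from the annotated start site in bases. Blue boxes lie on the strand of the gene and red boxes on the opposite strand; Ifi209 and the first start of Ifi203 have none.

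The best local alignment of promoters matched 282 of 285 bases (98.9%) between Ifi208 and Ifi213, which point in opposite directions. It matched 95.4% of 109 bases between Ifi203 and Mndal, 94.5% of 199 between Ifi205 and Ifi211, and 88.3% of 290 between Ifi207 and Ifi211. The transcripts are alike too. Of the 60-base words in the GENCODE M21 transcripts, 60 nucleotides being the read length, 68.9% of those of Ifi211 also occurred in another gene, 42.9% in Ifi205. The share was 28.4% for Ifi209, nearly all with Ifi214, 17.7% for Ifi205, 16.7% for Ifi208 (14.0% with Ifi213), 16.5% for Ifi204, 15.8% for Mndal, 12.0% for Ifi213, 9.05% for Ifi203 and 5.22% for Ifi207. How the authors counted reads that fit several genes is not given in the sources used here, so values of Ifi211 above all, and those of Ifi209, hold reads whose origin is uncertain. Exons of Mndal and Ifi203 also overlap by 37 bases on the same strand.

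Library totals ranged from 14636058 to 19181707 counts, and 22 libraries had at least 20458 genes with a count, while dCIS LPS libraries 3 and 4 had 17628 and 15997. Levels are CPM, read counts divided by library sizes scaled by TMM (a trimmed mean of log ratios between libraries), as mean ± SD of 4 libraries. The scaling matters for LPS: TMM factors were 1.29 to 1.36 in untreated and 0.695 to 0.826 in LPS libraries, and with plain library totals the median of all genes fell by 0.80 on the log2 scale in WT, while all members still passed. Hdac9 was at 11.2 ± 1.46 CPM in untreated WT and at 1.04 ± 0.218 in KO, and after LPS at 12.3 ± 2.83 and 0.302 ± 0.155, so the KO libraries matched their label. In dCIS it was at 15.6 ± 2.23 CPM untreated and 14.6 ± 5.26 after LPS, with a mean above that of WT; neither difference passed. All 8 macrophage markers were at 1 CPM or more in every group, with a summed level of 15529 CPM or more in each library. The markers of neutrophils, B cells, T and NK cells, dendritic cells, mast cells, and fibroblasts and endothelium each summed to at most 22.1 CPM, and Ly6g, the defining neutrophil marker, was at 0 in all 24 libraries.

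Before LPS the members already differed widely in level. Compared per kilobase of exon (GENCODE M21 lengths), Ifi207 was highest in untreated WT at 50.9 ± 5.31 CPM per kb. Ifi204, the DNA-binding protein p204, followed at 33.0 ± 1.98. Mndal stood at 18.5 ± 1.09, Ifi211 at 15.7 ± 0.849 and Ifi209 at 12.7 ± 1.40, and the libraries of Ifi211 and Ifi209 overlapped. Ifi203 was at 7.20 ± 0.905, while Ifi213, Ifi208 and Ifi205 were lowest at 1.48 ± 0.330, 0.752 ± 0.178 and 0.600 ± 0.253, the last 2 overlapping. The untreated WT libraries held 181 to 277 counts of Ifi213, 64 to 108 of Ifi208 and 23 to 76 of Ifi205. The order of the 9 genes was the same in untreated KO, where Mndal and Ifi211, and Ifi213 and Ifi208, overlapped as well. In untreated dCIS it differed only at the end, where Ifi208, whose dCIS libraries fell into separate pairs, came after Ifi205.

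LPS raised every member in WT: 9 of 9 genes passed the test as higher, in a comparison where 30.4% of the 14757 tested genes did. Their median log2 fold change was 4.79, against 0.00 over all tested genes. Ifi205 changed most. It was at 3.53, 1.07, 3.00 and 2.42 CPM in untreated WT libraries 1 to 4 and at 1320.3, 1281, 1269 and 1375 CPM after LPS, a log2 fold change of 9.03 (SE 0.27; edgeR, adjusted p = 6.44e-20). Its LPS libraries lay far above its untreated ones. Ifi208 was at 3.53, 4.01, 3.05 and 5.23 CPM untreated and at 317, 319, 300.0 and 350.3 after LPS. Its log2 fold change of 6.34 has an SE of 0.96, which is 0.19 in a fit without the dCIS libraries, where the fold change was 6.31. Ifi213, its near-twin at the promoter, went from 8.41, 9.27, 9.29 and 13.4 CPM to 431, 422, 408 and 469, a log2 fold change of 5.42 (SE 0.23).

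Ifi209 and Ifi211 rose to a like extent, by 4.86 (SE 0.17) and 4.79 (SE 0.17) on the log2 scale. In untreated WT Ifi209 was at 41.2, 41.8, 44.5 and 52.1 CPM, and after LPS at 1329, 1347, 1229.7 and 1331. Ifi211 rose from 29.4, 26.0, 27.4 and 28.9 CPM to 782, 754, 759.9 and 801. For neither gene did any LPS library come near an untreated one.

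Mndal, Ifi204 and Ifi203, which were well expressed at rest, rose by about 4 on the log2 scale. Mndal had 61.9, 67.8, 67.8 and 71.4 CPM in untreated WT and 1152, 1213, 1095 and 1224 after LPS, a change of 4.12 (SE 0.12). For Ifi204 the libraries went from 113, 121, 110.4 and 126 CPM to 2012, 2042, 1954 and 2065, the highest CPM of any member, with a change of 4.10 (SE 0.14). Ifi203 went from 47.1, 41.8, 47.7 and 56.5 CPM to 819, 780.3, 684 and 860.2, a change of 4.03 (SE 0.16).

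Ifi207 changed least. Its libraries were at 197, 166, 155 and 179 CPM untreated and at 735, 687, 624 and 888 after LPS, a log2 fold change of 2.07 (SE 0.18; edgeR, adjusted p = 1.98e-10). It ranked 1178 of 14757 genes by fold change, whereas the other 8 members ranked between 16 and 371. Per kb, the gene highest in untreated WT thus had the smallest fold change and the gene with the lowest mean the largest. The untreated level is the divisor of the fold change, so such an order is partly built in. Between these extremes it did not hold throughout: Ifi204, at 33.0 CPM per kb untreated, rose by 4.10 and Ifi203, at 7.20, by 4.03.

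**Figure D2:**
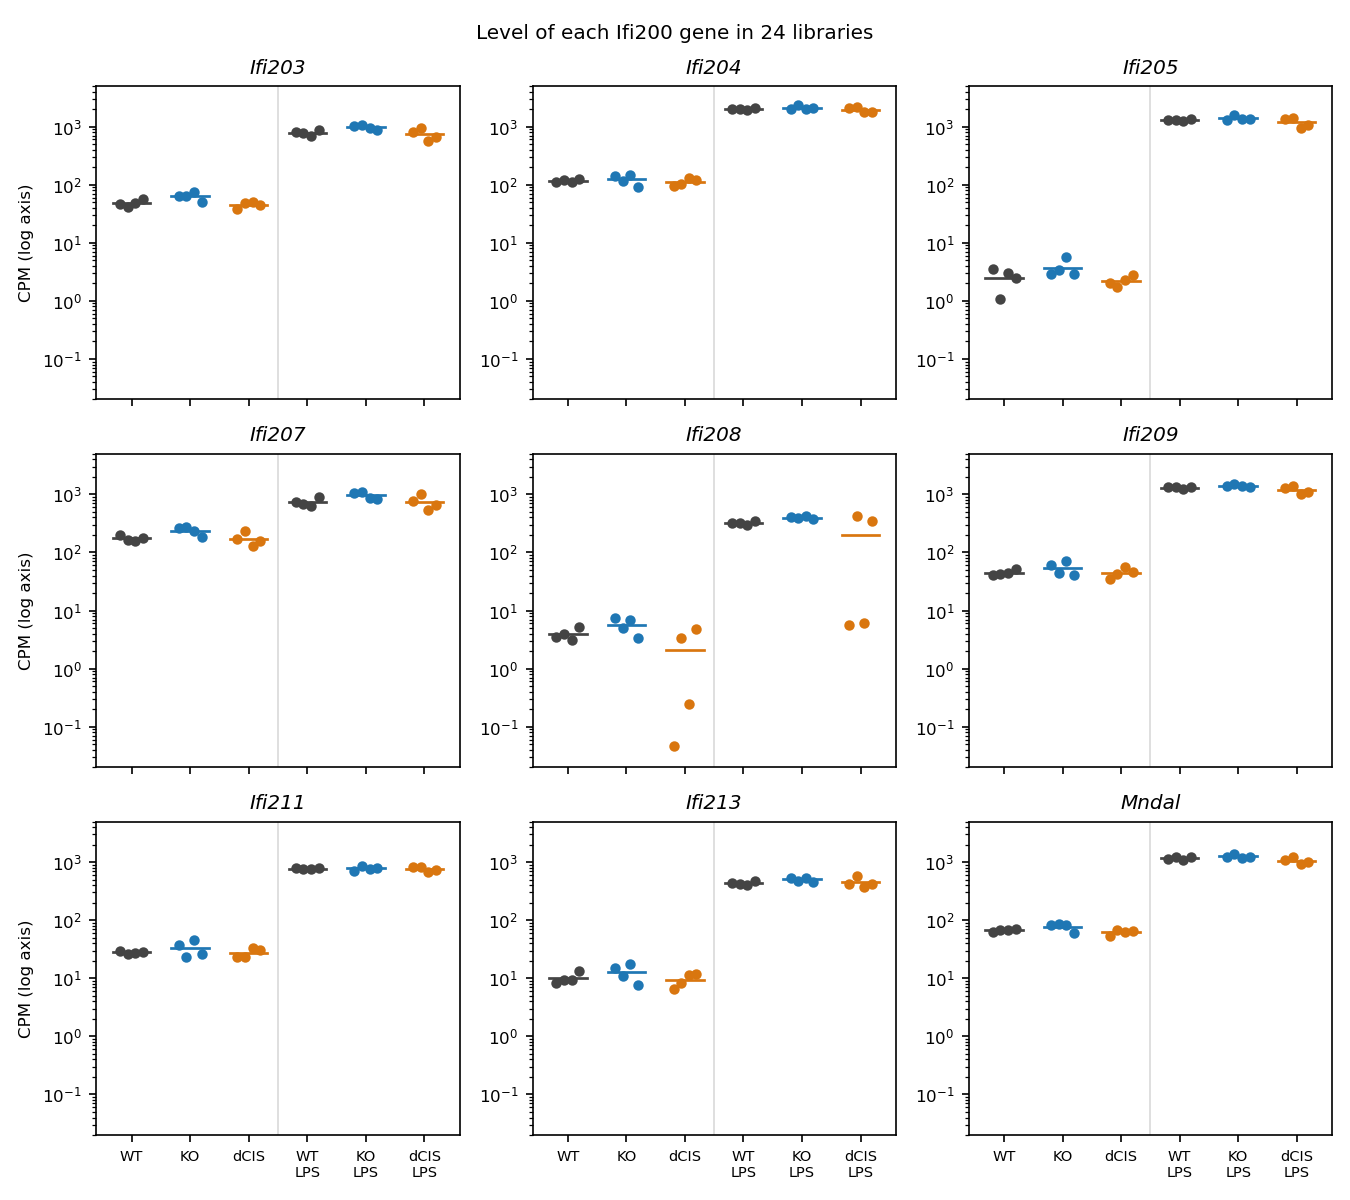
CPM (log axis) of each of the 9 Ifi200 genes in 24 libraries, grouped by genotype and treatment; points are libraries 1 to 4 from left to right and lines are group means. LPS libraries stand above untreated ones for every gene, and in dCIS the points of Ifi208 split: libraries 1 and 3 are at 0.047 and 0.248 CPM untreated and at 5.68 and 6.08 after LPS.

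Summed over the 9 genes, the level went from 496.6 ± 29.6 to 8857 ± 424 CPM in WT, 17.8-fold. As a share of all counts, with no scaling, it went from 0.0660% to 0.673%, which is 10.2-fold. With plain library totals the members' log2 fold changes in WT ran from 1.26 to 8.22 with a median of 3.98, and all 9 still passed. In bulk RNA, a change in how many cells express a gene and a change in its RNA per cell cannot be told apart.

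In KO macrophages 9 of 9 members passed as higher (30.9% of all genes did), with a median log2 fold change of 4.57. Ifi205 went from 2.91, 3.38, 5.74 and 2.91 CPM to 1283, 1554, 1346 and 1375, a change of 8.54 (SE 0.26). Ifi208 went from 7.31, 4.98, 6.93 and 3.38 CPM to 409.9, 387, 417 and 379, a change of 6.14 (SE 0.94). The other changes were 5.29 for Ifi213, 4.71 for Ifi209, 4.57 for Ifi211, 4.09 for Ifi204, 4.01 for Mndal, 3.95 for Ifi203 and 2.03 for Ifi207. Untreated and LPS libraries did not overlap for any member tested in WT, KO or dCIS, as was so for 61.8%, 59.0% and 51.4% of all genes.

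In dCIS 8 of the 8 members tested passed as higher, against 31.3% of all genes, with a median of 4.43. Ifi205 again led, from 2.02, 1.73, 2.28 and 2.84 CPM to 1340.4, 1403, 954 and 1065, a change of 9.06 (SE 0.27). Ifi213 followed with 5.56, then Ifi211 with 4.79, Ifi209 with 4.74, Ifi204 with 4.11, Mndal with 4.10, Ifi203 with 4.05 and Ifi207 with 2.12. Libraries 3 and 4, the dCIS LPS libraries with fewer detected genes, were the lowest pair for 7 of the 8 members, Ifi213 being the exception; the part of their fewer detected genes in this was not tested. Ifi207 was at 763, 1033, 530.2 and 659.6 CPM there, and Ifi203 at 808, 965, 562 and 668.

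**Figure D3:**
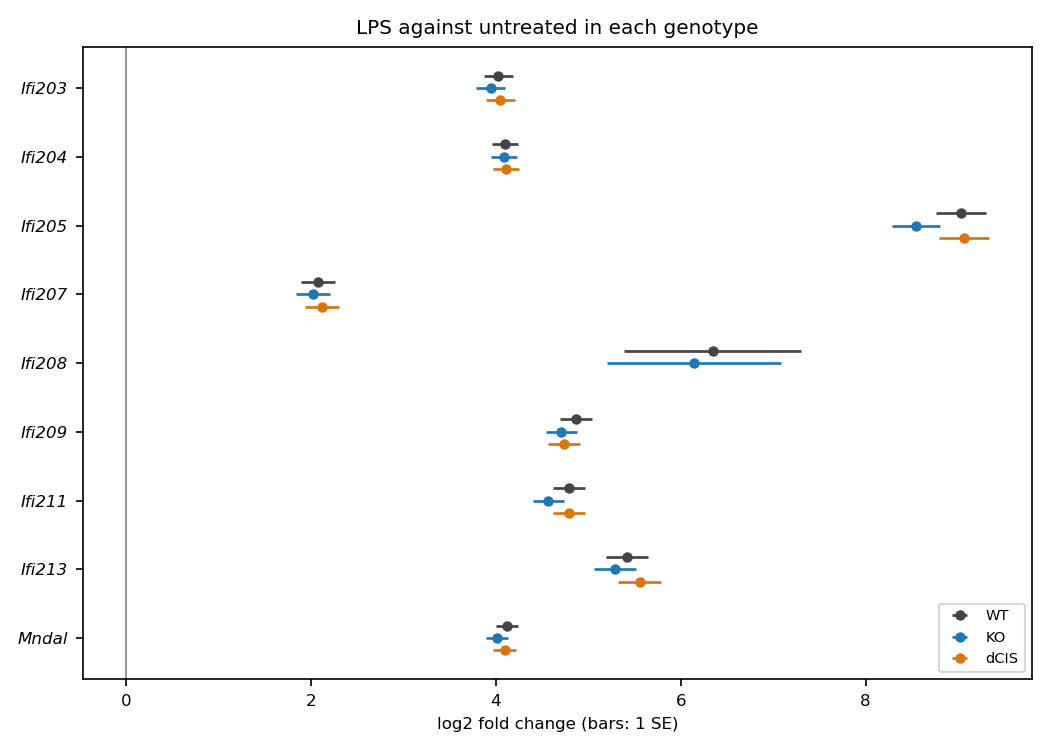
Log2 fold change of LPS against untreated (points, with bars of 1 SE from the edgeR fit) for each Ifi200 gene in WT, KO and dCIS. Ifi205 lies near 9 and Ifi207 near 2 in each genotype; Ifi208 is not shown for dCIS, where it was not tested.

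After LPS the order of levels per kb changed. Ifi204 led in WT at 567 ± 13.4 CPM per kb, followed by Ifi211 at 434 ± 12.0, Ifi209 at 369 ± 15.1 and Mndal at 323 ± 16.5. Ifi205, last before LPS, was the fifth at 314 ± 11.3 and overlapped Mndal. Ifi207, first before LPS, came after it at 214 ± 32.9, and Ifi203 at 117 ± 11.2, Ifi213 at 63.2 ± 3.79 and Ifi208 at 61.1 ± 3.99 closed the order, the last pair overlapping. In KO and dCIS the order down to Ifi203 was the same, but from Ifi211 to Ifi207 each gene overlapped the next.

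Ifi208 split the dCIS libraries by number. Untreated, libraries 1 to 4 held 1, 71, 5 and 108 counts, or 0.0470, 3.33, 0.248 and 4.79 CPM. After LPS they held 70, 5244, 83 and 4254 counts, or 5.68, 431, 6.08 and 348 CPM. Libraries 1 and 3 were low under both treatments, and libraries 2 and 4 lay near the WT and KO libraries, which ran from 3.05 to 7.31 CPM untreated and from 300.0 to 417 after LPS. The labels give all 4 libraries of a dCIS group the same genotype. Whether the cells behind libraries 1 and 3 differ from those behind libraries 2 and 4 in anything else, such as strain background, was not tested, and a mean of Ifi208 over dCIS describes neither pair.

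As a description of depth, exact binomial 95% intervals, which cover counting error only, ran from 0.00119 to 0.262 CPM and from 0.0805 to 0.579 CPM in untreated libraries 1 and 3, and from 4.43 to 7.17 and from 4.84 to 7.54 in the same libraries after LPS. The lowest WT or KO library after LPS was 52.9 times library 1 and 49.4 times library 3. The SD of log2 CPM over the 4 dCIS libraries was 2.40 untreated and 3.47 after LPS. No other of the 14757 tested genes had a larger one in either group: the next reached 1.67 and 2.38, and the median over all genes was 0.257 and 0.309. In WT and KO after LPS the SD of Ifi208 was 0.0928 and 0.0660. These values are the ones that singled out the gene, and they carry no test.

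Other members showed no such split. In dCIS LPS libraries 1 to 4 Ifi213 was at 414, 576, 369.8 and 428 CPM, Ifi209 at 1272, 1405, 1003 and 1099, Ifi204 at 2054, 2185, 1781 and 1794, and Ifi211 at 817, 819.8, 675 and 742. Against Ifi213 the ratio of Ifi208 counts was 0.0137 in library 1 and 0.0164 in library 3 but 0.748 and 0.813 in libraries 2 and 4. In the 8 WT and KO LPS libraries that ratio ran from 0.734 to 0.817. Untreated, it was 0.00719 and 0.0218 in dCIS libraries 1 and 3, 0.403 and 0.404 in libraries 2 and 4, and between 0.328 and 0.478 in WT and KO. Ifi206, whose promoter matches that of Ifi208 over 99.3% of 281 bases, was at 633, 748, 529 and 647 CPM in the dCIS LPS libraries, without a split. The few reads given to Ifi208 in libraries 1 and 3 cannot be told from reads of its paralogs, with which it shares 16.7% of its words. The libraries with fewer detected genes were dCIS LPS 3 and 4, of which only library 3 was low in Ifi208.

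**Figure D4:**
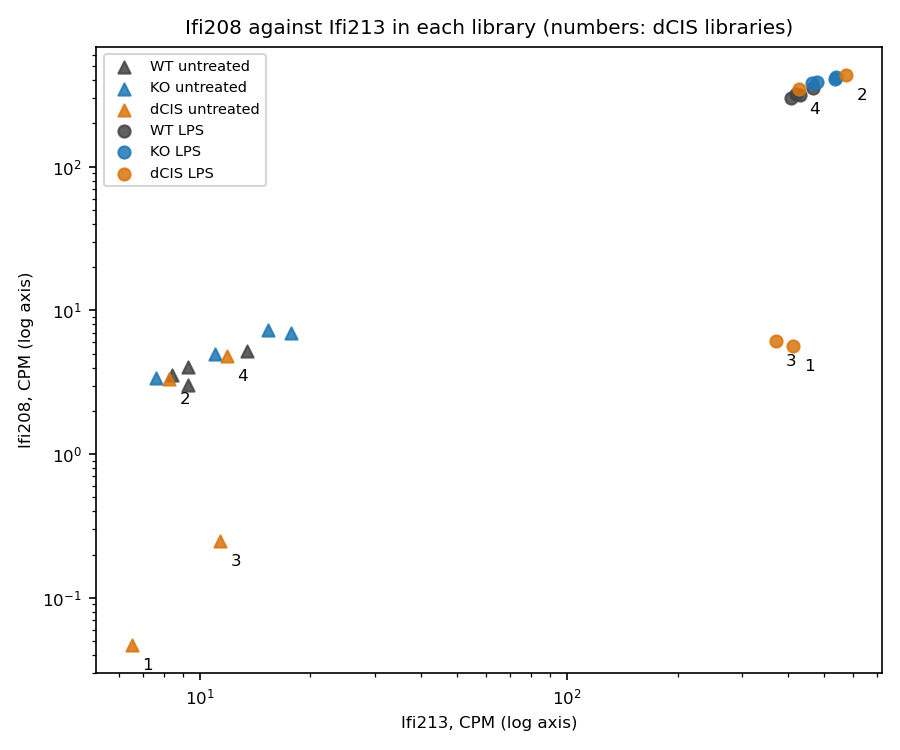
Ifi208 against Ifi213 in each library, both in CPM on log axes; triangles are untreated and circles LPS libraries, and the numbers name dCIS libraries. Libraries 1 and 3 of dCIS lie far below the rest at like levels of Ifi213, with ratios of 0.0137 and 0.0164 after LPS against 0.734 to 0.817 in WT and KO.

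The genes most like Ifi208 over the 8 dCIS libraries, by Pearson r of log2 CPM after each treatment mean was taken off, were Naaa (0.962), Prune2 (0.959), Anks1 (0.958), Ints12 (0.957) and Bivm (0.950). Their differences between libraries were far smaller: Naaa, which encodes an acid amidase of the lysosome, was at 27.6, 38.6, 27.2 and 41.2 CPM in the dCIS LPS libraries. With the other 8 members r was lower, between 0.161 and 0.655. With n = 8 and libraries that share depth, these values only describe.

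KO and WT were compared next, which asks whether loss of Hdac9 goes with another level of the members. Untreated, all 9 members were above WT in KO, as were 49.8% of all genes, with log2 fold changes from 0.07 to 0.57 and a median of 0.35. Members share sequence, and many varied together among libraries. Their common direction is therefore not 9 separate observations, and the same holds for the genotype comparisons below. None of the 9 passed the edgeR test, in a comparison where 7.31% of genes did; 3 had an unadjusted p under 0.05, as had 25.2% of all genes. Ifi203 was at 64.0, 64.6, 73.4 and 49.9 CPM in KO against 47.1, 41.8, 47.7 and 56.5 in WT, a log2 difference of 0.38 (SE 0.14; edgeR, adjusted p = 0.0902). Ifi207 was at 259, 269.9, 234 and 182 CPM against 197, 166, 155 and 179, a difference of 0.44 (SE 0.18), and Ifi205 differed by 0.57 (SE 0.25). KO library 4 was the lowest of its group for 7 of the 9 members, all but Ifi205 and Ifi211. For no member were all KO libraries above all WT ones, which was so, in either direction, for 21.5% of all genes.

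Other settings gave calls. DESeq2 called 2 members (Ifi203 and Ifi205) and 13.8% of all genes, a fit of those 2 groups alone called Ifi207 and 17.2%, and a fit without the dCIS libraries called Ifi203 and Ifi207 and 18.9%. With no filter Ifi203, Ifi205, Ifi207 and Ifi208 passed, and 4.31% of a larger set of 36121 genes. In that fit the SE of Ifi208 was 0.15, against 0.91 in the main fit, although both hold its split dCIS libraries. Its call with no filter thus rests on an SE that does not show that spread. With the replicate number as a block 1 member and 13.4% of all genes passed. The members called were all higher in KO. Without KO library 3 the median difference was 0.18 and no member passed. Ifi208 differed by 0.51 (SE 0.91), and by 0.50 (SE 0.19; edgeR, adjusted p = 0.0748) without the dCIS libraries.

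After LPS the members lay nearer together. All 9 were again above WT in KO (51.6% of all genes were), with a range of 0.01 to 0.39 and a median of 0.10, against 0.01 over all genes; none passed in edgeR (2.74% of genes did) or in DESeq2, and 2 had an unadjusted p under 0.05 in edgeR, as had 21.2% of all genes. Ifi203 was at 1009, 1065, 934 and 878 CPM in KO, all above the 684 to 860.2 CPM of WT, a difference of 0.31 (SE 0.14; edgeR, adjusted p = 0.207). Ifi207 was at 1048, 1110.0, 869 and 826 CPM against 735, 687, 624 and 888 in WT, a difference of 0.39 (SE 0.18). For Ifi208 all KO libraries also lay above all WT libraries (379 to 417 against 300.0 to 350.3 CPM). Its difference was 0.31 (SE 0.73), and 0.29 (SE 0.07; edgeR, adjusted p = 0.0206) when only these 2 groups were fitted, which also called Ifi203 and Ifi207 and 15.9% of all genes. In the fit without the dCIS libraries it was 0.32 (SE 0.14) and did not pass (edgeR, adjusted p = 0.155). That fit called none of the 9 members and 13.9% of all genes. Groups that did not overlap were seen for 2 of 9 members and for 18.3% of all genes.

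The response to LPS was not shown to differ between KO and WT. The differences of response ran from -0.49 (Ifi205) to -0.01 (Ifi204), none of 9 passed in edgeR (0.0203% of genes did) or DESeq2, and none had an unadjusted p under 0.05. The SEs ran from 0.15 to 1.16, so small differences would not have been seen. Ifi208 had the largest SE, in a fit that holds its split dCIS libraries. Without the dCIS libraries its difference was -0.18 (SE 0.24) and did not pass.

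dCIS and WT did not differ detectably in the 8 members tested. Untreated, the log2 differences ran from -0.17 to -0.00 with a median of -0.07, and after LPS from -0.14 to 0.05 with a median of -0.06. No member passed in edgeR, where 0.0542% of genes did untreated and 0.258% after LPS, or in DESeq2, and none had an unadjusted p under 0.05. The groups overlapped for every member, and did not for 2.51% and 6.86% of all genes. With SEs of 0.11 to 0.26 untreated and 0.11 to 0.19 after LPS, small differences would not have been seen. The median after LPS was 0.07 when dCIS libraries 3 and 4 were both left out and 0.01 without library 3 alone. Responses to LPS in dCIS and WT differed by -0.13 to 0.14, and none of 8 passed in edgeR (0.0% of genes did) or DESeq2, with none at an unadjusted p under 0.05.

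**Figure D5:**
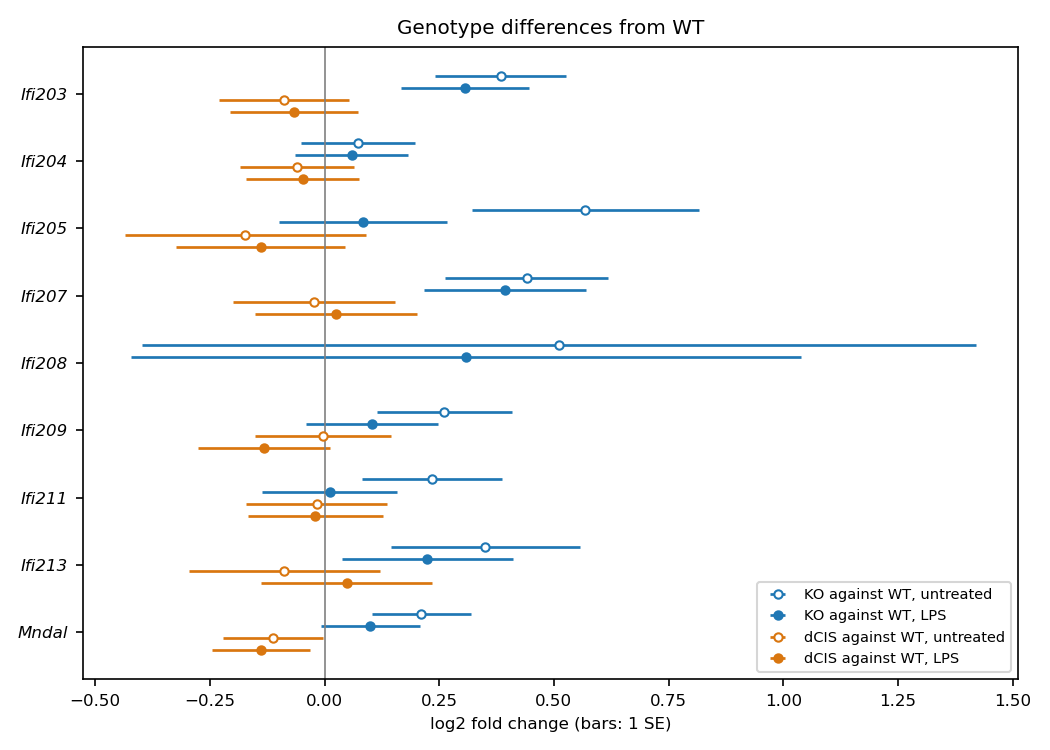
Log2 fold change of KO (blue) and dCIS (orange) against WT (points, with bars of 1 SE from the edgeR fit), untreated (open) and after LPS (filled). The KO values lie to the right of 0 for all 9 genes, up to 0.57, but none passed the test; Ifi208 in dCIS is not shown because it was not tested.

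KO against dCIS, untreated, was the genotype comparison with calls: 3 of 8 members passed, all higher in KO, where 21.3% of all genes passed and 12.1% passed as higher. All 8 lay above 0, as did 50.5% of genes. These were Ifi203 with a log2 difference of 0.47 (SE 0.14; edgeR, adjusted p = 0.0207), Ifi205 with 0.74 (SE 0.25; adjusted p = 0.0358) and Mndal with 0.32 (SE 0.11; adjusted p = 0.0358). Ifi205 was at 2.91, 3.38, 5.74 and 2.91 CPM in KO and 2.02, 1.73, 2.28 and 2.84 in dCIS, the 1 member whose groups did not overlap (18.7% of all genes did not). Mndal was at 82.1, 85.1, 83.6 and 60.5 CPM in KO and 53.6, 67.3, 61.7 and 66.3 in dCIS. Ifi207 differed by 0.46 and missed the threshold; with the replicate number as a block it passed with 0.48 (edgeR, adjusted p = 0.0126), and 4 members and 26.5% of all genes passed. That block spans all 24 libraries, also groups whose same-numbered libraries did not deviate together (r down to -0.154 between untreated WT and dCIS). The calls changed with single libraries: none was made without KO library 3 (15.6% of all genes passed), without dCIS library 1 (14.2%) or in a fit of the 2 groups alone (9.65%), 1 was made without dCIS library 3 (7.98%) and 5 were made without KO library 4 (16.9%). After LPS none of the 8 passed in edgeR (2.18% of genes did) or DESeq2. All 8 lay above 0 (55.0% of genes), no groups failed to overlap (7.89% of genes), the differences ran from 0.03 to 0.37 with a median of 0.23, and 3 had an unadjusted p under 0.05 (20.2% of genes). Without dCIS library 2, 2 members (Ifi203 and Ifi207) and 9.6% of all genes passed. KO against WT shares its KO libraries with this comparison, so the 2 sets of values are not independent.

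Among the other PYHIN genes, Aim2 rose less than any member but Ifi207. It was at 25.9 ± 1.45 CPM in untreated WT and 157 ± 2.67 after LPS, a log2 fold change of 2.60 (SE 0.09). After LPS Aim2 was higher in KO than in dCIS by 0.34 (SE 0.08; edgeR, adjusted p = 0.0300), where 2.18% of all genes passed. Its levels were 159, 175, 162 and 168 CPM in KO and 147, 142, 122 and 114 in dCIS. The lowest were dCIS libraries 3 and 4, those with fewer detected genes, and the part of this in the difference was not tested. Ifi206 went from 10.3 ± 1.69 to 589 ± 59.6 CPM in WT, a change of 5.83 (SE 0.21), and Ifi214 from 0.546 ± 0.208 to 26.4 ± 2.64 CPM, a change of 5.58 (SE 0.23). Ifi206 was higher in untreated KO than in WT by 0.65 (SE 0.18; edgeR, adjusted p = 0.0314), at 18.8, 10.1, 22.3 and 13.8 CPM against 10.3, 8.57, 9.81 and 12.6, a call that 11 of 17 other settings kept and that was lost without KO library 1 or 3 or WT library 1, 2 or 3, and when those 2 groups were fitted alone. Ifi202b was at 0.371 CPM or less in every library and was not tested.

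Interferon-stimulated genes rose after LPS as well. Of 28 interferon-stimulated genes listed, 27 were tested and 27 passed as higher in each genotype, against 30.4% to 31.3% of all genes. Their median log2 fold change in WT was 5.24. Gbp2, a guanylate-binding GTPase, rose by 7.42 and Cmpk2, a mitochondrial nucleotide kinase, by 7.78. Of 19 tested genes of interferon production and signalling, 18 were higher and 1 lower in WT (median 1.78), among them Irf7, a transcription factor for interferon genes, with 5.24, Stat2 with 3.24 and Socs1, a brake on JAK kinases, with 6.75. The members' median of 4.79 lay between these lists. Of 17 tested genes for sensing DNA in the cytosol, 6 were higher and 5 lower in WT. This is close to the split over all 14757 tested genes, of which 4484 were higher and 4571 lower. Cgas, which makes the second messenger for STING, rose by 1.87 and Nlrc3 fell by 2.28. In the inflammasome list, 10 of 12 were higher and 2 lower, with Casp1 up by 2.55 and Il18 by 4.75.

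Between KO and WT, untreated, 3 of 27 interferon-stimulated genes passed (Cmpk2, Ddx58 and Mx2), all higher, with a list median of 0.24. Of 19 signalling genes 1 passed (Ifnar1, higher by 0.44), and of all genes 7.31% passed in either direction. After LPS none of either list passed (2.74% of all genes did). KO against dCIS, untreated, gave 9 higher and 1 lower of 27, and 6 higher and 1 lower of 19. In that comparison 21.3% of all genes passed and 12.1% passed as higher. Between dCIS and WT no gene of either list passed under either treatment (0.0542% of all genes did untreated and 0.258% after LPS).

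The genes whose levels were most like those of a member were found over all 24 libraries. By Pearson r of log2 CPM the nearest non-members were Slfn8 for Ifi203 (0.999), Herc6 for Ifi204 (0.999) and Ifi213 (0.999), Gbp2 for Ifi205 (0.998), Parp12 for Ifi209 (0.9995), Zbp1 for Ifi211 (0.999) and Parp9 for Mndal (0.999). For Ifi207 it was Rel, an NF-kappaB subunit (0.995), and for Ifi208 Plod2 (0.933). The 28 pairs of members without Ifi208 had r from 0.958 to 0.999, the 8 pairs with it 0.848 to 0.885. All 24 libraries include both treatments, between which these genes differ. With the mean of each group taken off, the 28 pairs had a median r of 0.658 and the 8 pairs one of 0.334. The nearest gene was then the same as before for Ifi209 (Parp12, 0.944) and Ifi213 (Herc6, 0.913). For the others it was Phf11d for Ifi204 (0.892) and Ifi211 (0.902), Gbp7 for Ifi203 (0.922), Trim30d for Mndal (0.889), Btbd7 for Ifi207 (0.951), Ints12 for Ifi208 (0.873) and Il13ra1 for Ifi205 (0.773). Libraries share depth and handling, so these are descriptions. Every r of Ifi208 here, with or without group means, includes the dCIS libraries where it was low. Those values singled out the gene, so its lower r with other members is not a separate result.

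Genes around the cluster were more mixed after LPS. Of the 15 tested genes before the cluster (nearer the centromere, Aim2, Ifi206 and Ifi214 included), 8 were higher and 2 lower after LPS in WT, with a median of 1.03. Of the 15 after it 5 were higher and 5 lower, with a median of 0.12. Over all 14757 tested genes 4484 were higher and 4571 lower. Among the genes before the cluster, Slamf8, a receptor of myeloid cells, rose by 4.23. Between KO and WT, untreated, 1 gene before the cluster (Ifi206) and 2 after it passed as higher, among the latter Cep170 by 0.67 (7.31% of all genes passed). After LPS Igsf8, a membrane protein before the cluster, had a log2 difference of -0.51 and passed as lower. Then 1 gene after the cluster passed as higher (2.74% of all genes passed). No neighbour passed between dCIS and WT.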

How the data were processed

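The deposited values are whole-number read counts per Ensembl gene in 24 libraries, made by the authors; STAR, edgeR and the build mm39 stand in the submitters' processing notes, while for versions, the counting program and the strand setting nothing was found: they are not given in the labels or notes. Symbols came with the gene table for 91.2% of the 56941 identifiers. Counts were filtered with filterByExpr (minimum count 10, minimum total 15), which left 14757 genes, and 1 model over all libraries was tested with the quasi-likelihood F test of edgeR 4.0.16 in R 4.3.3 after TMM scaling. The standard error is the log2 fold change divided by the root of F, p-values were Benjamini-Hochberg adjusted over all 14757 genes, and a call is an adjusted p under 0.05. The procedure was tested on simulated data. DESeq2 1.42.0 (default settings), other scalings and filters, replicate blocks, fits of the compared groups alone and left-out libraries were alternatives; the fit without dCIS and the one with plain library totals were chosen after seeing the data.

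The members and gene lists were chosen with earlier results of these data known. The text names all members and other PYHIN genes, up to 4 called genes with the smallest p per list and comparison, the called chromosome neighbours between genotypes (not all are reported here), and the 3 genes most correlated with a member (5 for Ifi208 in dCIS). Same-numbered libraries deviated together between untreated and LPS in WT (r 0.113 to 0.150) and KO (0.155 to 0.296) and between untreated KO and dCIS (0.114 to 0.359), which pairs them by a limit of every r over 0.1. In dCIS (0.0396 to 0.339) and in the other genotype pairs at least 1 value was lower. Between untreated and LPS dCIS, r was still highest with the same number for all 4 numbers, as in WT and KO. Between untreated KO and dCIS this held for 3 of 4. Promoters were aligned locally (match 1, mismatch -1, gap -3 and -1).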

Additional observations from a re-analysis of the deposited data

Results flagged for a closer look

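Within 54 groups of 4 libraries (9 genes in 6 groups), 3 values stood apart from the other libraries of their group by Dixon's 95% limit, and chance flags about 1 group in 20. Ifi205 was highest in untreated KO library 3 at 5.74 CPM, with the next at 3.38. Ifi209 was lowest in WT LPS library 3 at 1229.7 CPM, with the next at 1329. Mndal was lowest in untreated KO library 4 at 60.5 CPM, with the next at 82.1.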

How the results depend on the processing

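Across all settings tried, every LPS value of a member stayed higher: 451 of 451 passed, with log2 fold changes of at least 1.20. A replicate block within genotype left the counts at 9, 9 and 8. Between KO and WT, untreated, where edgeR called 0 members, 4 passed with no filter, 1 with the replicate block, 2 with DESeq2, 1 with only the compared groups fitted and 2 without the dCIS libraries; leaving out each library in turn gave 0 each time. After LPS 1 passed with no filter (2.87% of the genes in that fit did) and 3 with only the compared groups fitted (15.9%), against 0 (2.74%). Between KO and dCIS, untreated, 3 passed, 0 with only the compared groups fitted, 4 with the replicate block and 0 to 5 when single libraries were left out; after LPS the range was 0 to 2. Untreated, all 8 differences of dCIS against WT lay below 0, and some must have crossed 0 without dCIS library 1, where their median was above 0. The LPS fold changes of members did not change direction under these settings, nor did the differences given above for named members in KO against WT and KO against dCIS. Medians near 0 did: that of dCIS against WT after LPS, -0.06, was 0.07 without dCIS LPS libraries 3 and 4 and 0.01 without library 3 alone; that of dCIS against WT untreated was 0.0033 without untreated dCIS library 1; and that of the LPS response of dCIS minus that of WT was below 0, down to -0.08, in 7 of the fits that leave out 1 library. The block changed no other count by over 1.5 times. The cause of these changes was not tested. With plain library totals the split of all calls moved: after LPS in WT from 4484 higher and 4571 lower to 2067 and 9525, and for KO against WT, untreated, from 742 and 337 to 595 and 502. Counts as low as 1 limit Ifi208 in untreated dCIS.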
